A study of Harpegnathos saltator with 37 samples.

Results

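Cytochrome P450 enzymes are heme proteins that insert oxygen into small lipophilic molecules, and in insects several of them build or break down the steroid hormone ecdysone. Most sit in the membrane of the endoplasmic reticulum and take electrons from P450 reductase, while those of the mitochondrial clan take them from a ferredoxin. Described here are 4 family members with recognisable counterparts across insects, and their developmental roles, where known, come from Drosophila. Cyp301a1, of the mitochondrial clan, is needed there for forming the adult cuticle. Cyp303a1, of the CYP2 clan, is needed for the development of external sensory organs such as bristles. Cyp304a1, also of the CYP2 clan, and Cyp4aa1, of the CYP4 clan, are given without a role. The 4 genes were found by their NCBI symbols among the 14001 genes of an expression table of the ant Harpegnathos saltator. They are Cyp301a1 (LOC105192585), Cyp303a1 (LOC105190954), Cyp304a1 (LOC105187693) and Cyp4aa1 (LOC105190372).

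Messenger RNA was sequenced in 37 libraries of the central brain, dissected free of optic lobes and gnathal ganglion and of about 95% of the antennal lobes. Young females aged 5 days had been placed in sets of 25 with 3 males in nests that held no reproductive ant, where some duel and become gamergates, which are workers that mate and lay eggs. Day 10 after this isolation is represented by 4 workers and 5 duelers, day 20 by 4 workers and 5 gamergates, and day 120 by 9 hunting workers and 6 dominant gamergates. Another group held 4 late pupae, for which the labels give no day, nest or caste. Day 120 workers were scored for hunting from day 100 on, and day 120 gamergates were recognised by mature oocytes, so these groups differ from the younger ones in role as well as in age. Levels are FPKM, fragments per kilobase of gene and per 1000000 fragments. Neither separate nests nor the number of brains per library is stated in the labels, and p-values therefore reflect the spread among these libraries alone.

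Whole reads could be recovered from the FPKM values and totalled 9.20 to 55.78 M per library (M, 1000000). Age and stage were confounded with the sequencing run named in the labels: the day 10 groups shared run 2, the late pupae run 3 and the day 20 groups run 5. Run and age therefore cannot be told apart, whereas castes of 1 day were sequenced together. At day 120 run 1 held 4 hunting workers and 1 gamergate, and run 4 held 5 of each. All 9 neuronal markers measured were above 0 in every library, with a summed level of 443 to 1167 FPKM. Markers of retina and optic lobe, tissue that the dissection removes, summed to 5.59 to 930 FPKM over the libraries. Day 10 libraries also stood apart from one another in cuticle genes, and those values are given with Cyp301a1.

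Cyp301a1 and Cyp4aa1 had their highest group means at day 10, though Cyp301a1 was low in 3 of the 9 libraries there, and their lowest at day 120. Of the others, Cyp303a1 was nearly level over all groups, and Cyp304a1 was lowest in late pupae and highest in day 120 gamergates. Group means of Cyp301a1 ran from 0.00478 FPKM in day 120 gamergates to 3.24 FPKM in day 10 workers. Those of Cyp4aa1 ran from 0.122 FPKM in day 120 gamergates to 1.72 FPKM in day 10 workers. The ranges of the other two were narrow by comparison, 1.79 to 2.30 FPKM for Cyp303a1 and 1.52 to 4.23 FPKM for Cyp304a1. Cyp301a1 and Cyp4aa1 entered the tests only because some young libraries reached 1 FPKM, namely 5 libraries for Cyp301a1 and 8 for Cyp4aa1, where at least 4 were required. In whole tissue, fewer cells of a type and less RNA per cell cannot be told apart.

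**Figure D1:**
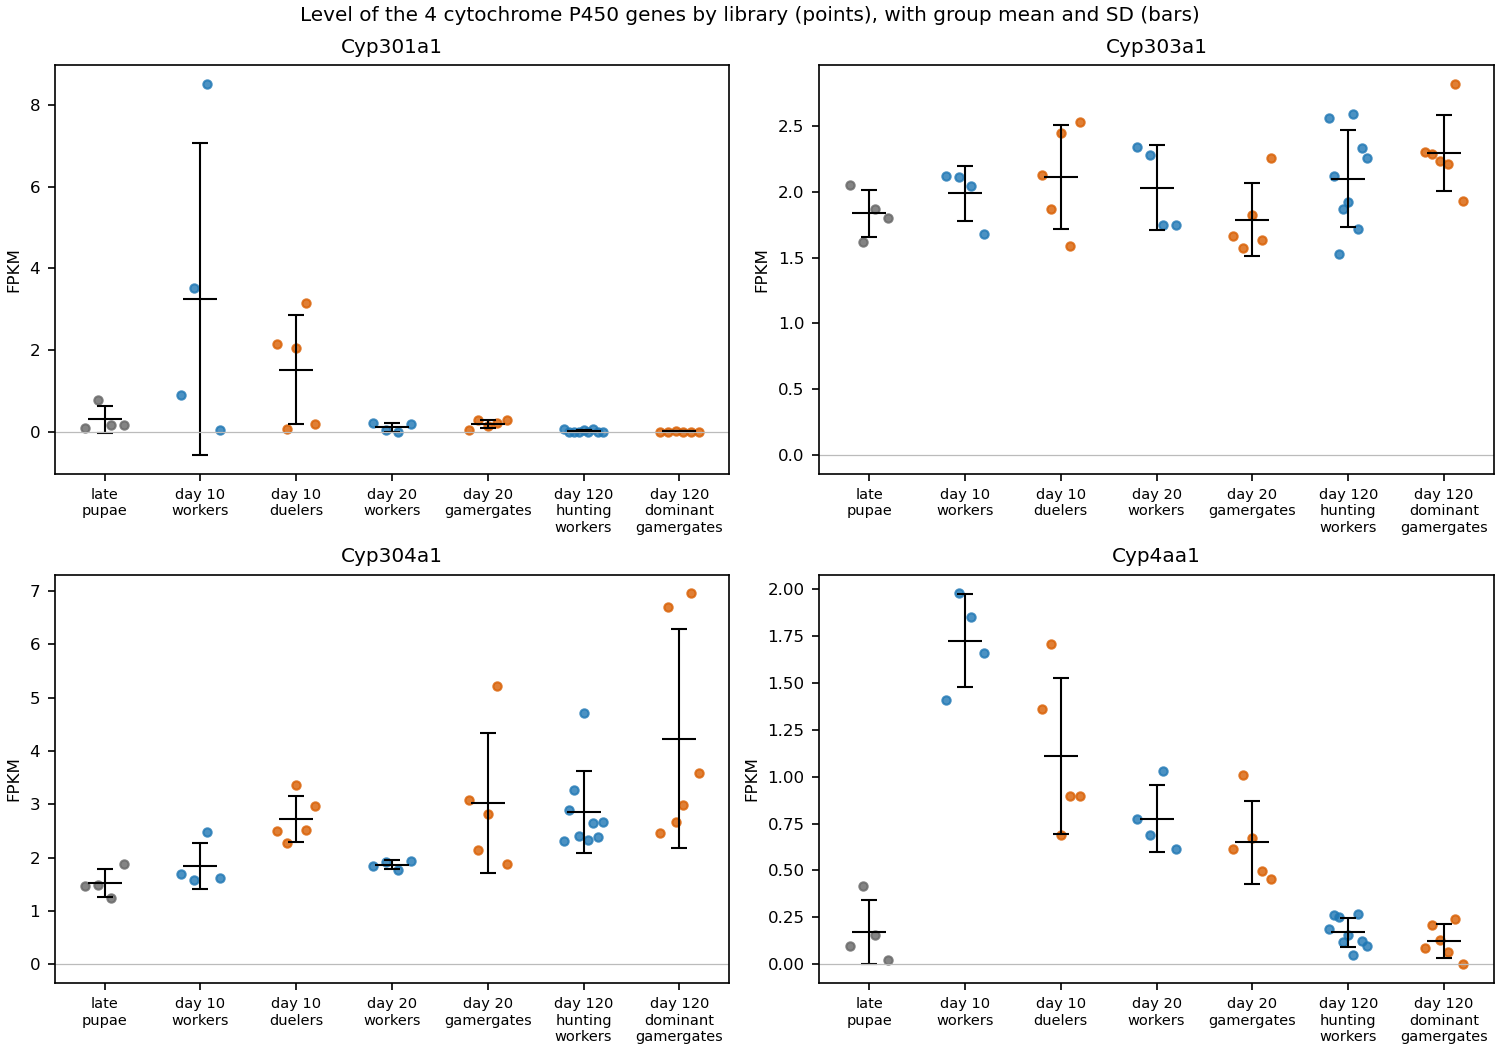
FPKM of each of the 4 genes (vertical axes, linear, a separate scale per gene) in the 37 libraries, 1 point per library, by group; blue marks workers, orange duelers and gamergates, grey late pupae, and black bars the group mean and SD. Cyp301a1 and Cyp4aa1 have their highest group means in day 10 workers, at 3.24 and 1.72 FPKM, and Cyp304a1 in day 120 dominant gamergates, at 4.23 FPKM.

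Cyp301a1, the cuticle-forming enzyme of Drosophila, was most abundant in day 10 brains and very uneven there. The 4 day 10 worker libraries, replicates 1 to 4, held 0.891, 3.52, 8.52 and 0.0482 FPKM, that is 40, 151, 618 and 2 reads. The 5 duelers held 2.14, 0.0724, 2.05, 3.14 and 0.197 FPKM. Both groups thus mix libraries with clear expression and libraries with almost none, low in worker replicate 4 and in dueler replicates 2 and 5. The highest day 10 library exceeded the lowest 177-fold, against 2.88-fold for Cyp4aa1 in the same 9 libraries.

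At day 20 every library was low in Cyp301a1. Workers held 0.209, 0.0309, 0 and 0.193 FPKM, and gamergates 0.0381, 0.274, 0.128, 0.206 and 0.281 FPKM. These are 15 reads over all 4 worker libraries and 40 reads over all 5 gamergate libraries, so a single library carries little information. By day 120 the gene was listed at 0 in 6 of 9 hunting workers, with 10 reads in the whole group and a highest value of 0.0694 FPKM. It was at 0 in 5 of 6 dominant gamergates, and the remaining library held 2 reads. A count of 0 allows up to 3 reads in a library. Late pupae held 0.0818, 0.787, 0.173 and 0.168 FPKM, between the day 10 means and the day 120 levels, with replicate 2 above the other libraries.

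Scaled to depth, reads of Cyp301a1 were 201-fold more frequent in day 10 workers than in day 120 hunting workers (95% counting interval 109 to 420). They were 188-fold more frequent in day 10 duelers than in day 120 gamergates, with an interval of 51.7 to 1557 because the older group held 2 reads. Against late pupae the excess of day 10 workers was 11.3-fold (8.94 to 14.6). These intervals cover counting error only and not the spread between libraries, which was larger.

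The test across all genes, limma on log2(FPKM + 0.5), takes that spread into account and understates changes of genes this low. Cyp301a1 fell by 2.15 on the log2 scale from day 10 workers to day 120 hunting workers (SE 0.44, limma adjusted p = 0.000575). It fell by 1.65 from duelers to day 120 gamergates (SE 0.46, limma adjusted p = 0.00998). Both falls held when any single library was left out, with adjusted p of at most 0.0156 and 0.0440. The fall from day 10 to day 20 workers was 1.93 (SE 0.52, limma adjusted p = 0.00714) and late pupae lay 1.59 below day 10 workers (SE 0.52, limma adjusted p = 0.00945). These last 2 calls rest on 1 library: without day 10 worker replicate 3 the differences were -1.27 (limma adjusted p = 0.0724) and -0.93 (0.101). From duelers to day 20 gamergates the difference was -1.22 (SE 0.46, limma adjusted p = 0.0499), a call that each of 7 other settings ended. On the recovered reads, with limma-voom, the falls to day 20 workers and to day 120 gamergates missed the threshold as well, at adjusted p of 0.0534 and 0.0550, and so did the pupal difference, at 0.108. Late pupae lay above day 120 hunting workers by 0.56 without passing (95% interval -0.30 to 1.42, limma adjusted p = 0.283), but passed when only those 2 groups were fitted (0.0354).

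Cyp4aa1 also had its highest levels at day 10, with less unevenness. Day 10 workers held 1.41, 1.98, 1.85 and 1.66 FPKM, and duelers 1.36, 1.71, 0.687, 0.895 and 0.900 FPKM. None of the 9 libraries was below 0.687 FPKM, including worker replicate 4 and dueler replicates 2 and 5, in which Cyp301a1 was low. The coefficient of variation in day 10 workers was 14.3%, against 118% for Cyp301a1, and in duelers 37.6% against 87.9%. Day 20 workers held 0.772, 0.691, 1.03 and 0.616 FPKM and day 20 gamergates 0.649 ± 0.218 FPKM (SD, n = 5). In the 9 day 120 hunting workers the lowest, median and highest values were 0.0509, 0.157 and 0.270 FPKM. Dominant gamergates held 0.0849, 0.208, 0.128, 0.0674, 0.242 and 0 FPKM, and late pupae 0.0975, 0.417, 0.154 and 0.0250 FPKM. No day 10 or day 20 library came as low as the highest of the late pupal and day 120 libraries, 0.417 FPKM, the lowest of them being at 0.452 FPKM.

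Cyp4aa1 fell by 1.73 from day 10 workers to day 120 hunting workers (SE 0.16, limma adjusted p = 6.98e-09) and by 1.32 from duelers to day 120 gamergates (SE 0.17, limma adjusted p = 2.38e-06). Reads per depth were 9.93-fold (7.94 to 12.5) and 9.81-fold (7.11 to 13.9) more frequent in the younger group of each pair. The fall was already present between day 10 and day 20 in workers, at 0.80 (SE 0.19, limma adjusted p = 0.00277; 0.199 after rescaling each library to a fixed sum). In the gamergate line the same step was 0.47 (SE 0.17, limma adjusted p = 0.0414), a call that 4 of 7 other settings and 6 of 10 single-library omissions ended. From day 20 to day 120 reads per depth were lower again, with ratios of the younger to the older group of 4.80 (3.72 to 6.21) in workers and 5.12 (3.62 to 7.40) in gamergates. The intervals of these read ratios cover counting error only, and day 20 was not tested against day 120. Late pupae lay 1.75 below day 10 workers (SE 0.19, limma adjusted p = 3.94e-09) and 0.02 below day 120 hunting workers (95% interval -0.34 to 0.30, limma adjusted p = 0.934).

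Muscle markers were low together with Cyp4aa1 and Cyp301a1 against day 10 workers, but parted from both between late pupae and hunting workers. Of 11 listed 8 were measured and 7 tested. In hunting workers 5 of the 7 were lower than in day 10 workers (median -1.72), where 24.6% of all genes passed. All 7 were lower in late pupae than in day 10 workers (median -3.49), where 57.3% passed. From duelers to dominant gamergates 1 of the 7 was lower (median -0.63), where 25.1% passed. Late pupae also lay below hunting workers in 5 of the 7 (median -1.77), where 57.3% passed. There the estimates were -0.02 for Cyp4aa1 and 0.56 for Cyp301a1. The measured muscle markers summed to 41.5 to 349 FPKM in day 10 workers, 27.7 to 455 FPKM in duelers and 11.6 to 70.1 FPKM in hunting workers. They summed to 16.6 to 129 FPKM in dominant gamergates and 2.57 to 12.7 FPKM in late pupae. Day 20 libraries held 18.9 to 43.2 FPKM. Their part in the levels of Cyp4aa1 and Cyp301a1 was not tested.

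Calls of the 4 genes can be read against the share of all 9986 tested genes that passed the same threshold. In day 20 against day 10 workers 2 of the 4 passed, where 21.4% of all genes did, and in day 20 gamergates against duelers 2 of 4, where 25.8% did. In day 120 hunting workers against day 10 workers it was 2 of 4 against 24.6%, and in day 120 gamergates against duelers 2 of 4 against 25.1%. For late pupae it was 2 of 4 against day 10 workers and 1 of 4 against day 120 hunting workers, where 57.3% of all genes passed in each. The genes counted are Cyp301a1 and Cyp4aa1, which passed the filter only through young libraries, except in late pupae against hunting workers, where it is Cyp304a1. Nothing is read from the counts of the former, and the comparisons share groups, day 10 workers entering 3 of them.

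**Figure D2:**
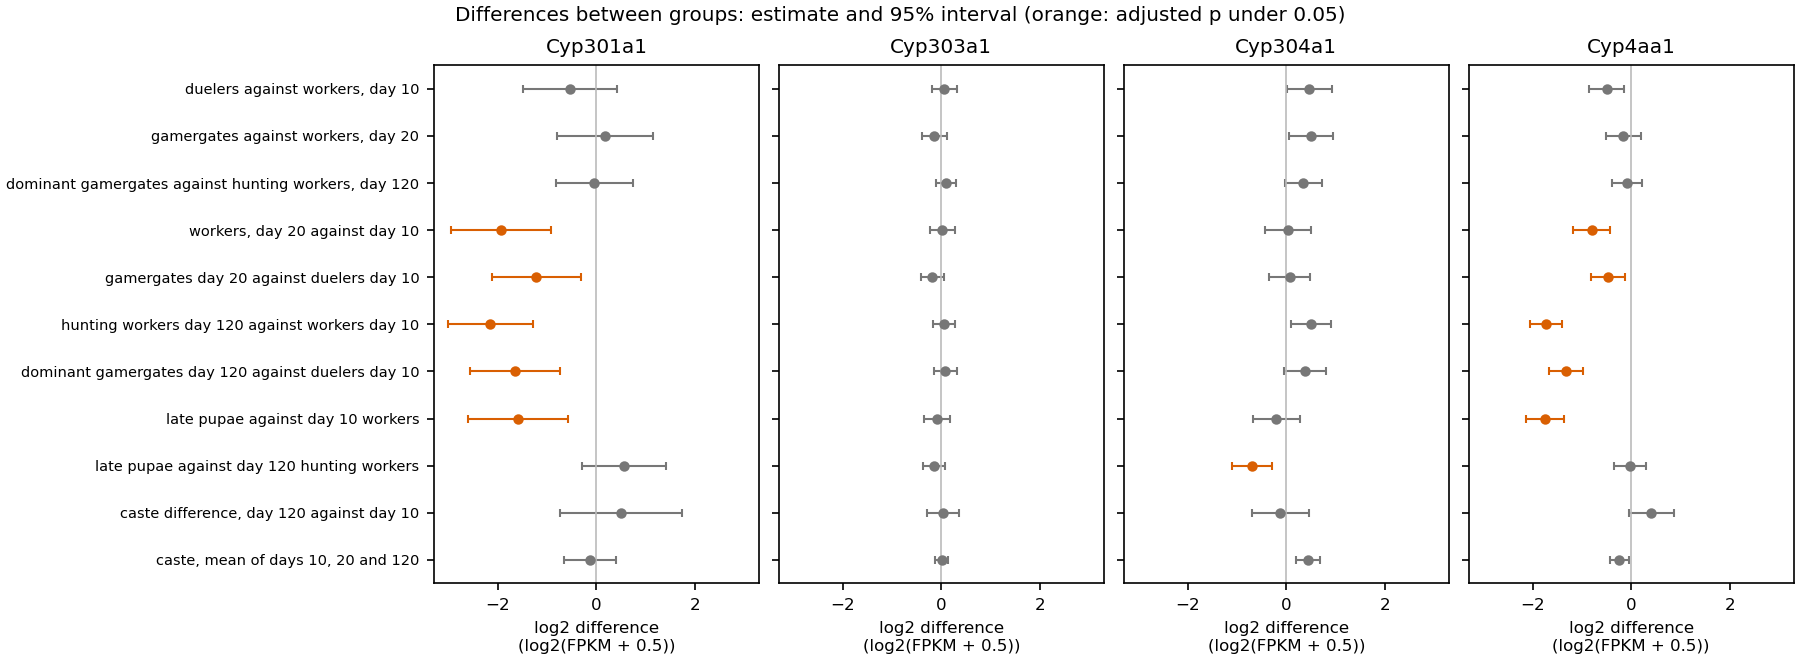
Difference of each gene in each comparison (horizontal axes, log2(FPKM + 0.5), first group minus second; points are limma estimates, bars 95% intervals from the standard error, orange where the adjusted p is under 0.05). Cyp301a1 and Cyp4aa1 lie below 0 in the 5 comparisons with day 10 as the second group of the pair, from -0.47 to -2.15, and no gene is orange in a caste comparison.

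Cyp303a1, the bristle-development enzyme of Drosophila, varied least. Over all 37 libraries it ran from 1.53 to 2.82 FPKM, a 1.85-fold range with 154 to 1046 reads per library. Day 10 workers held 2.12, 2.11, 2.04 and 1.68 FPKM and late pupae 2.05, 1.62, 1.87 and 1.80 FPKM. Group means were 2.30 ± 0.291 FPKM in day 120 gamergates (SD, n = 6), 2.12 ± 0.397 in duelers (n = 5) and 2.10 ± 0.368 in hunting workers (n = 9). They were 2.03 ± 0.324 in day 20 workers (n = 4), 1.99 ± 0.210 in day 10 workers (n = 4), 1.83 ± 0.181 in late pupae (n = 4) and 1.79 ± 0.279 in day 20 gamergates (n = 5). The ranges of all neighbours in this order overlapped. In 0 of the 11 comparisons did it pass limma's test, and unadjusted p was under 0.05 in 0 of them. Its estimates lay between -0.19 and 0.09 on the log2 scale, and the widest interval reached from -0.29 to 0.35, except that after the same rescaling the gene was higher in hunting workers than in day 10 workers by 0.50 (limma adjusted p = 0.0147), when the median of all genes stood at 0.46.

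Cyp304a1 had its highest values in reproductive ants of day 120. Dominant gamergates held 2.46, 6.69, 2.67, 2.99, 6.96 and 3.59 FPKM, and replicates 2 and 5 were above every other library of the series. Hunting workers held 2.31 FPKM at the lowest, 2.64 at the median and 4.72 at the highest. Day 20 gamergates held 3.07, 2.14, 2.81, 5.21 and 1.87 FPKM, and day 20 workers 1.84, 1.92, 1.77 and 1.94 FPKM, all below 4 of the 5 gamergates. Day 10 duelers held 2.50, 2.28, 3.36, 2.51 and 2.97 FPKM, and day 10 workers 1.69, 1.57, 2.48 and 1.61 FPKM, so that 3 of 4 workers were below all 5 duelers. Late pupae were lowest, with 1.47, 1.49, 1.25 and 1.88 FPKM. They were 0.70 below day 120 hunting workers on the log2 scale (SE 0.21, limma adjusted p = 0.00470), and no pupal library reached the lowest hunting worker.

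At each age the reproductive line had the higher mean of Cyp304a1, but no single comparison passed the test. Duelers exceeded day 10 workers by 0.47 (SE 0.23, unadjusted p = 0.0495, limma adjusted p = 0.761). Gamergates exceeded workers by 0.50 at day 20 (SE 0.23, unadjusted p = 0.0364, limma adjusted p = 1.00) and by 0.35 at day 120 (SE 0.19, unadjusted p = 0.0702, limma adjusted p = 0.367). Within run 4 alone the day 120 difference was 0.50 (limma adjusted p = 0.391), and with the replicate number as a block it was 0.11 (0.940). Single libraries moved these differences to 0.40 to 0.59 at day 10, to 0.31 (without gamergate replicate 4) to 0.63 at day 20, and to 0.22 (without gamergate replicate 5) to 0.50 at day 120. A mean of the caste difference over the 3 ages, a contrast added after these values were seen, was 0.44 (SE 0.13, unadjusted p = 0.00129), and after adjustment over all genes p was 0.245 in limma. With any single library left out it stayed between 0.38 and 0.49. The change with age in workers, 0.50 from day 10 to day 120, did not pass either (SE 0.21, limma adjusted p = 0.0772; after rescaling 1.02, adjusted p = 0.000785, with the median of all genes at 0.46), nor did the change from duelers to day 120 gamergates, 0.38 (SE 0.22, limma adjusted p = 0.202).

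None of the other three genes passed the same test between castes. For Cyp4aa1 the estimate was -0.50 in duelers against day 10 workers (95% interval -0.85 to -0.14, unadjusted p = 0.0102, limma adjusted p = 0.761), and -0.16 and -0.09 at days 20 and 120. For Cyp301a1 the estimates were -0.54, 0.18 and -0.04, with an interval at day 10 of -1.50 to 0.42. Few genes of any kind passed between castes: 0.0200% of all tested genes at day 10, 0.0100% at day 20 and 0.0601% at day 120, and 0.150% for the mean of the 3 ages. Unadjusted p was under 0.05 in 547, 215, 1440 and 814 genes in these comparisons. The caste difference at day 120 was also tested against that at day 10, and 0% of all genes passed in limma, 320 having an unadjusted p under 0.05; limma-voom called 0 as well. For the 4 genes that interaction ran from -0.12 for Cyp304a1 to 0.50 for Cyp301a1, with unadjusted p of 0.0915 or more.

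The order of group means was also examined pair by pair, with exact permutation tests on both sides between the 6 neighbours in the order of each gene. Of the 24 pairs 0 passed 0.05 after Benjamini-Hochberg adjustment, and 3 had an unadjusted p under it. With groups of 4 and 5 libraries the smallest exact permutation p is 0.0159, reached for Cyp4aa1 between day 20 gamergates and late pupae and for Cyp304a1 between duelers and day 20 workers, where adjusted values were 0.190. Several pairs would have had to lie at this floor together to pass, so the count of 0 does not show that neighbours were alike. In these 2 pairs alone the ranges did not overlap. Neighbouring groups of Cyp301a1, from day 10 workers down through duelers, late pupae, day 20 gamergates, day 20 workers and hunting workers to dominant gamergates, overlapped in every pair.

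The genes whose pattern was most like each of the 4 were found by Pearson's r of log2(FPKM + 0.5) over the 37 libraries, which share runs and dissections, so r is given as a description. For Cyp301a1 they were conv (r = 0.95), which in Drosophila organises the chitin of tracheal tubes, the cuticle protein gene Cpr97Ea (r = 0.95) and geko (r = 0.93). Over the 33 adult libraries r was 0.96, 0.96 and 0.95. Cpr97Ea held 35.2, 85.1, 233 and 1.44 FPKM in day 10 workers and 65.9, 0.782, 69.2, 128 and 0.697 FPKM in duelers, low in the same 3 libraries as Cyp301a1. The chitin-binding cuticle protein gene Cpap3-d was low in these too, at 0.390 FPKM in worker replicate 4 and 0.0154 and 0.205 FPKM in dueler replicates 2 and 5, against 13.1 to 51.7 FPKM in the other six. Cyp301a1, Cpr97Ea, Cpap3-d and conv were all highest in worker replicate 3.

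**Figure D3:**
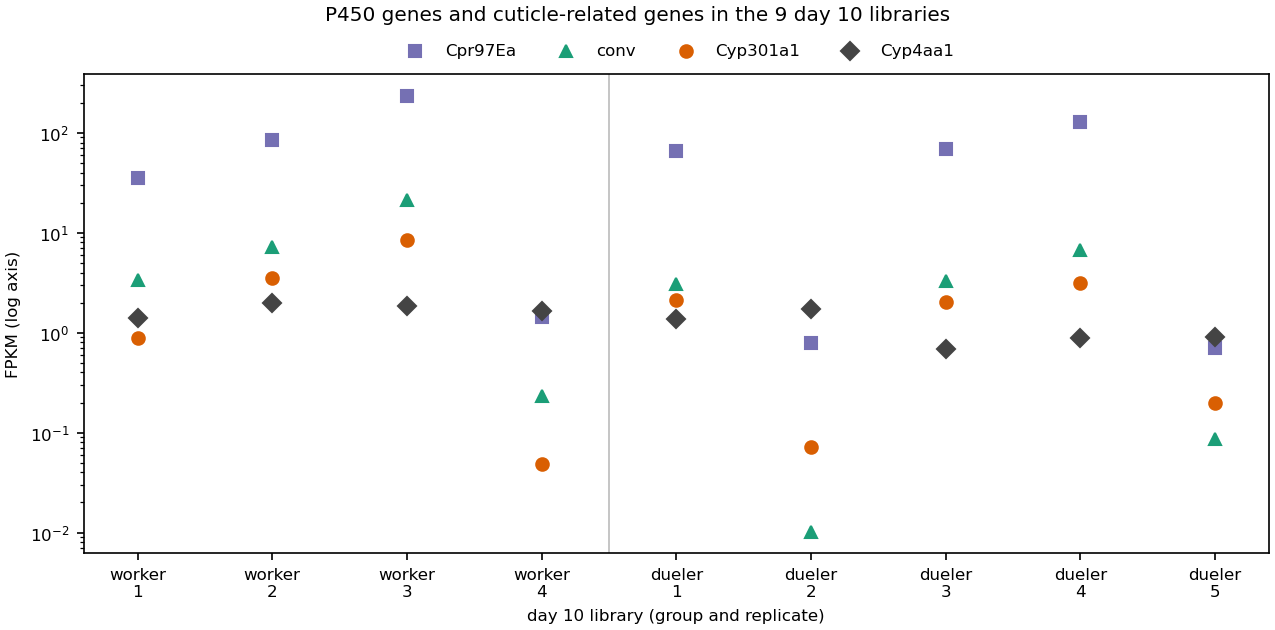
FPKM (vertical axis, log scale) of Cyp301a1, Cyp4aa1 and the cuticle-related genes Cpr97Ea and conv in the 9 day 10 libraries, by group and replicate. Cyp301a1, Cpr97Ea and conv are all low in worker 4 and in duelers 2 and 5, whereas Cyp4aa1 stays between 0.687 and 1.98 FPKM.

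Markers of epidermis, cuticle and trachea moved with Cyp301a1 among these libraries, and those of some other tissues did not. The 8 epidermis and cuticle markers, which include Cpr97Ea, conv and Cpap3-d, summed to 94.1, 178, 412 and 20.4 FPKM in day 10 workers and to 139, 37.4, 158, 228 and 33.3 FPKM in duelers. In later groups their sum was 17.2 to 47.0 FPKM, with Cpr97Ea, Cpap3-d and conv each at 0 in some library, and in late pupae it was 49.8 to 105 FPKM. Cpr97Ea and conv were picked above for their r with Cyp301a1 over libraries that include these. Agreement of the epidermis and cuticle sum with Cyp301a1 is therefore partly built in. Tracheal markers, 4 genes, summed to 42.0, 61.9, 101 and 19.7 FPKM in day 10 workers and to 50.2, 22.5, 52.8, 60.8 and 21.7 FPKM in duelers. In the same workers fat body markers summed to 2712, 2401, 2521 and 2440 FPKM and muscle markers to 349, 51.1, 151 and 41.5 FPKM. In the duelers these were 2412, 2462, 2068, 2146 and 2041 FPKM and 35.3, 35.5, 29.9, 455 and 27.7 FPKM. Neither sum followed the full order of Cyp301a1. Muscle was nevertheless highest in dueler replicate 4, as Cyp301a1 was among duelers. It was lowest in dueler replicate 5 and worker replicate 4, where Cyp301a1 was low. Retina and optic lobe markers were at 9.92 FPKM in worker replicate 4 and 34.7 FPKM in dueler replicate 2, but at 444 FPKM in dueler replicate 5, where Cyp301a1 was low. Their part in the level of Cyp301a1 was not tested.

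For Cyp4aa1 the most similar genes were the globin gene Glob1 (r = 0.90), Vha13 (r = 0.86), a subunit of the proton pump of acidic organelles, and Ant (r = 0.85), the ATP carrier of the inner mitochondrial membrane. Glob1 averaged 10.2 ± 1.25 FPKM in day 10 workers (SD, n = 4), 5.38 ± 0.654 in hunting workers (n = 9) and 5.31 ± 0.826 in late pupae (n = 4), a smaller relative range than that of Cyp4aa1. For Cyp304a1 they were MsrA (r = 0.79), an enzyme that repairs oxidised methionine, Vgn (r = 0.72) and Tps1 (r = 0.70), which makes trehalose, the blood sugar of insects. MsrA averaged 12.6 ± 3.00 FPKM in dominant gamergates (n = 6) and 9.57 ± 1.63 in hunting workers (n = 9). For Cyp303a1 the 3 best matches were inaE (r = 0.77), knockout (r = 0.77) and the kinase gene Doa (r = 0.76).

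**Figure D4:**
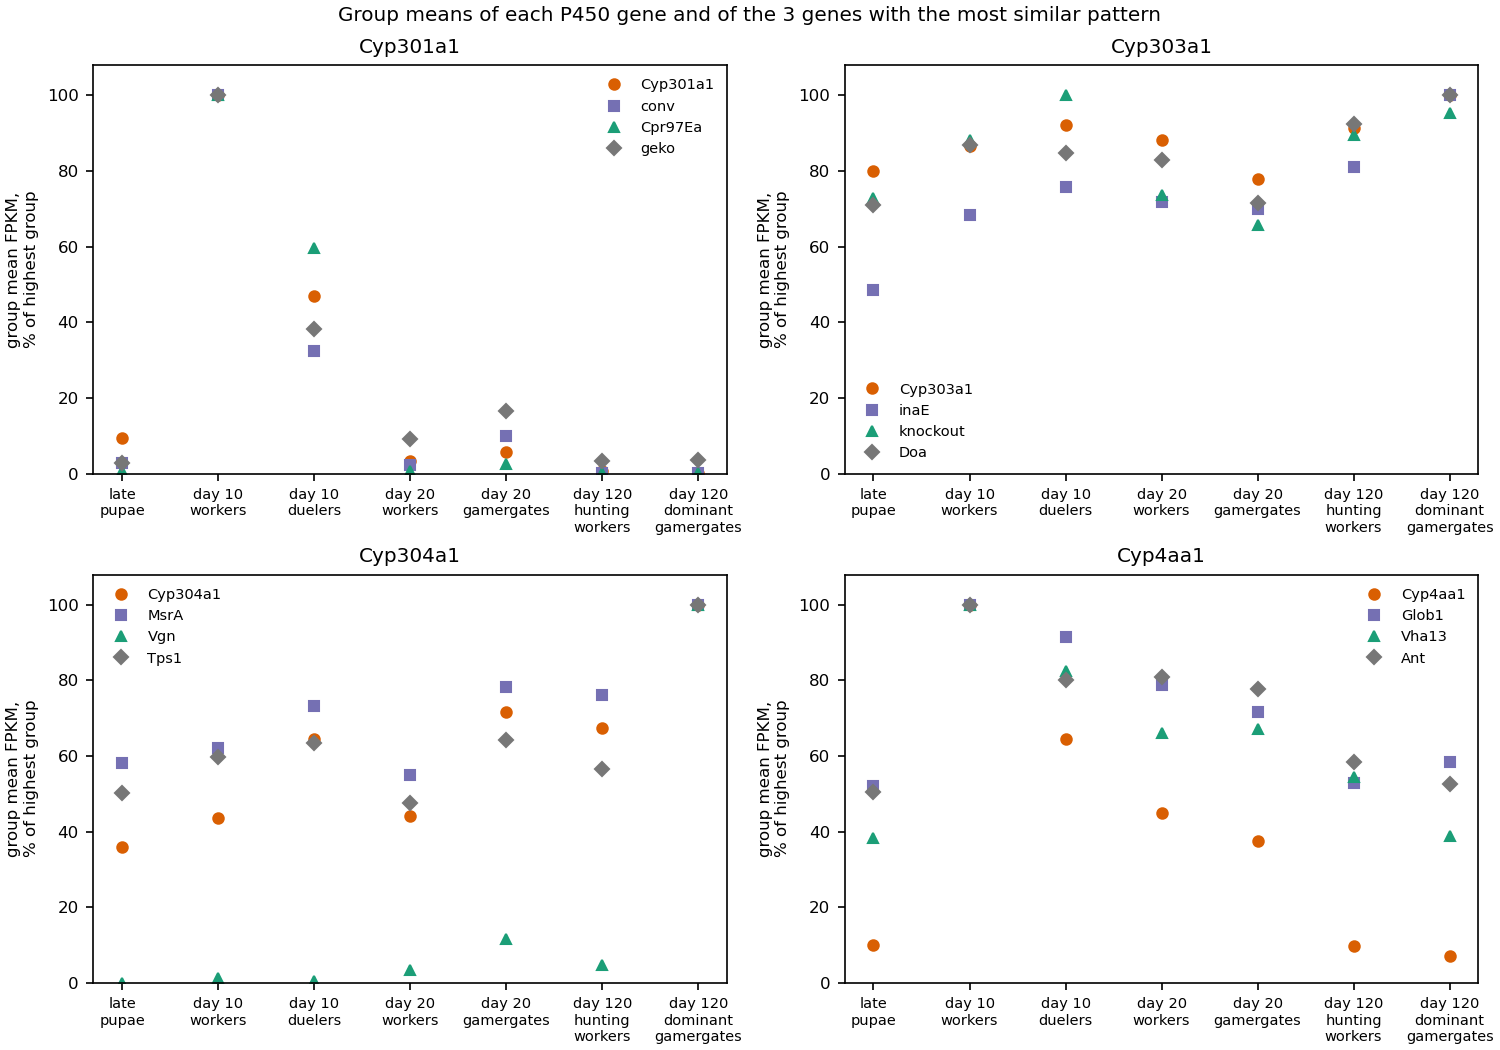
Group mean FPKM of each of the 4 genes and of the 3 genes most like it, as a percentage of the gene's own highest group mean (vertical axes, linear, from 0), by group. Cyp301a1 and its matches peak in day 10 workers, Cyp4aa1 and its matches too but with a shallower later decline in the matches, and Cyp304a1 and its matches peak in day 120 dominant gamergates.

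Fat body is a tissue that lies against the brain, and the levels of its 3 measured markers are set beside Cyp304a1. Their sum was 594 to 1204 FPKM in late pupae, 1933 to 3596 FPKM in hunting workers and 2837 to 3571 FPKM in dominant gamergates. At day 10 it was 2401 to 2712 FPKM in workers and 2041 to 2462 FPKM in duelers, the reverse of the order of Cyp304a1 means. Most of the sum came from the marker of highest level, the iron carrier gene Tsf1. Tsf1 held 3105, 2809, 2438, 2886, 2302 and 2993 FPKM in dominant gamergates, lowest in replicate 5, where Cyp304a1 was highest. The lipid carrier gene apolpp held 327, 449, 399, 374, 537 and 556 FPKM there. At day 10 it held 340, 213, 240 and 201 FPKM in workers and 257, 210, 344, 210 and 301 FPKM in duelers. Among duelers apolpp and Cyp304a1 were both highest in replicates 3 and 5. Both were also highest of their group in hunting worker replicate 5 (apolpp 371 FPKM) and day 20 gamergate replicate 4 (284 FPKM). In late pupae, day 10 and day 20 workers and dominant gamergates their highest libraries differed. The storage protein gene Hex70a held 0.0659, 14.1, 0, 7.30, 46.7 and 22.5 FPKM in dominant gamergates, high in replicates 2 and 5, where Cyp304a1 was highest, and also in replicate 6, where it was not. In hunting workers Hex70a was 0 to 3.02 FPKM. Their part in the level of Cyp304a1 was not tested.

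Genes of the processes in which these enzymes work were counted from prepared lists. Of 32 symbols for cuticle and chitin genes 17 were measured and 16 tested, and Cyp301a1 is not among them. In day 120 hunting workers against day 10 workers 8 fell and 0 rose, with a median difference of -1.06 against 0.01 over all genes, of which 24.6% passed. In dominant gamergates against duelers 7 fell and 0 rose (median -0.80), where 25.1% of all genes passed, but 4 fell under limma-voom. In late pupae 6 were lower and 1 higher than in day 10 workers (median -0.46), where 57.3% of all genes passed. After rescaling to a fixed sum 5 were higher and 5 lower, with a median of 0.00. The largest differences in pupae were those of apd-3l, an apidermin-type cuticle protein gene (-10.65, SE 1.84, limma adjusted p = 1.24e-05), Cpr97Ea (-5.22, SE 1.16), Cpap3-d (-3.79, SE 1.02) and conv (-2.75, SE 0.68). On the reads themselves, with limma-voom, Cpr97Ea and Cpap3-d did not pass in pupae, at adjusted p of 0.0731 and 0.105. From day 10 to day 120 in workers apd-3l fell by 12.34 (SE 1.57) and Cpr97Ea by 5.99 (SE 0.99). Without the day 10 and day 20 libraries apd-3l, Cpr97Ea, Cpap3-d and conv would not have passed the filter. A fall from day 10 was therefore partly built into their being tested, and nothing is read from the counts of this list.

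The electron donors and heme enzymes that serve P450s were expressed throughout. All 12 measured genes of the 14 listed were tested. P450 reductase, Cpr, named here for its role, averaged 7.89 FPKM in late pupae and 11.5 FPKM in dominant gamergates, and its pupal difference from day 10 workers was -0.01 (SE 0.26, limma adjusted p = 0.974). Among the partners of mitochondrial P450s, the ferredoxin genes Fdx2 and Fdx1 were lower in late pupae, by -0.88 (SE 0.12, limma adjusted p = 2.75e-07) and -0.50 (SE 0.14, limma adjusted p = 0.00308), and the ferredoxin reductase gene dare was higher, by 0.79 (SE 0.12, limma adjusted p = 3.02e-06). Ho, heme oxygenase, was higher by 0.91 (SE 0.19). In all, 3 of the 12 were higher and 5 lower in pupae, where 57.3% of all genes passed, counts that became 5 and 1 after rescaling to a fixed sum, when Fdx1 did not pass. In hunting workers against day 10 workers MSBP, a membrane protein that binds steroids, alone passed, at -0.44 (SE 0.11, limma adjusted p = 0.00380), where 24.6% of all genes did. After that rescaling MSBP was at 0.02. In that setting 10 of the 12 were higher, as were 5529 of all 9986 genes, and the median of all genes stood at 0.46.

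Hormone genes were examined because other P450s make and remove ecdysone. Of 20 symbols for the ecdysone response 12 were measured and tested, and in late pupae 5 were higher and 4 lower than in day 10 workers, where 57.3% of all genes passed. The nuclear receptor gene Hr4 was higher by 5.07 (SE 0.20, limma adjusted p = 8.45e-20), averaging 60.0 FPKM in pupae and 1.28 FPKM in day 10 workers. Hr38 was lower by -2.31 (SE 0.30), usp, which encodes the partner of the ecdysone receptor, by -2.0 (SE 0.19), and ftz-f1 by -1.51 (SE 0.33). In hunting workers against day 10 workers 0 of the 12 passed, where 24.6% of all genes did. After rescaling to a fixed sum 5 of the 12 were higher, as were 5529 of all 9986 genes. In dominant gamergates against duelers 3 of the 12 were higher and 0 lower, where 25.1% of all genes passed. They were br (0.86), Blimp-1 (0.61) and Hr4 (0.54), named after their values were seen, and each passed under limma-voom and after rescaling too. After rescaling 5 of the 12 were higher, as were 1996 of all 9986 genes. Of 19 symbols for steroid synthesis and breakdown 7 were measured and 3 tested. The sterol carrier gene Npc1a alone passed in pupae against day 10 workers, higher by 0.74 (SE 0.13, limma adjusted p = 9.47e-06), where 57.3% of all genes passed. In hunting workers 0 of the 3 passed, where 24.6% of all genes did. Both of the 2 juvenile hormone genes measured were tested. Kr-h1, the response gene, was higher in hunting workers by 2.88 (SE 0.43, limma adjusted p = 1.23e-05) and the other did not pass, where 24.6% of all genes did.

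Bristle and mechanosensory genes are set beside Cyp303a1. Of 24 such symbols 15 were measured and 11 tested. In late pupae against day 10 workers 5 were higher and 3 lower, where 57.3% of all genes passed, and 7 were higher and 1 lower after rescaling to a fixed sum. These stand against an estimate of -0.09 for Cyp303a1 (95% interval -0.35 to 0.17). They included the receptor gene N (2.25, SE 0.25, limma adjusted p = 6.79e-09), its ligand gene Dl (0.87, SE 0.30), the fate determinant numb (-1.04, SE 0.20) and the mechanosensory channel gene nompC (-0.89, SE 0.28, which did not pass after that rescaling). In hunting workers nompB, needed for building sensory cilia, was higher by 0.21 (SE 0.07) and neur, a regulator of N signalling, lower by -0.55 (SE 0.19), where 24.6% of all genes passed. After rescaling neur did not pass (-0.10, limma adjusted p = 0.667).

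Other P450 genes with a symbol were mostly at low levels. Cyp18a1, which inactivates ecdysteroids in Drosophila, and Cyp4g15 are the remaining symbols of the Cyp form, and shd, dib and sad encode P450s of ecdysteroid synthesis. None of these 5 genes reached 1 FPKM in 4 libraries, so no test was made. Cyp18a1 averaged 1.88 ± 2.31 FPKM in late pupae (SD, n = 4), 5.33 FPKM being its highest library, and 0.250 to 0.665 FPKM in adult groups. The 3 ecdysteroid synthesis genes averaged 0.262 to 0.636 FPKM in late pupae and 0.0521 to 0.248 FPKM in adult groups. The pupal mean of dib, 0.559 FPKM, rests on replicate 3 at 1.86 FPKM, the median being 0.158 FPKM.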

How the data were processed

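FPKM values per gene were deposited by the authors as 1 table of 37 libraries. They came from bcl2fastq, STAR and featureCounts, as the submitters' processing notes list them. No version or genome build is named there, and coordinates are left out. Identifiers were paired with symbols through a RefSeq table of assembly Hsal_v8.6, which held 13989 of the 14001 genes. The library protocol marks strand, per the labels. P450 genes are a multigene family, and reads shared between near-identical copies may have been divided or dropped.

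The test was limma 3.58.1 (lmFit, eBayes with trend; R 4.3.3) on log2(FPKM + 0.5). Genes with at least 1 FPKM in at least 4 libraries were tested, 9986 in all, in 1 fit of 37 libraries with 1 mean per group and a run term within day 120. P-values are two-sided with Benjamini-Hochberg adjustment over all tested genes and a threshold of 0.05. The steps between low FPKM values gave whole reads within 0.1 read for 13445 of the 13445 genes above 0, and 100% of their values; the recovered totals and the depths that the steps imply differed between libraries by up to 56.2%, so the denominator the authors used was not simply this total. Read ratios are sums of reads per depth implied by the steps, not per recovered total, with exact 95% intervals. Libraries at 0 allow 3 reads. The fit was tested on simulated data.

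The 4 genes and the lists were chosen with earlier results of these data known. Named list genes are up to 4 called members with the largest difference in late pupae against day 10 workers and up to 2 in hunting workers against day 10 workers; the symbols Phm, vg and Ktl were taken out of the lists because their match or role was unsure. Alternatives were pseudocounts of 0.1 and 1, no filter, rescaling to a sum of 1000000 (TPM), limma-voom on the recovered reads, a fit of only the groups compared, a replicate block, no run term, run 4 alone, and each library left out.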

Additional observations from a re-analysis of the deposited data

Results flagged for a closer look

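In 4 of the 28 combinations of gene and group, the highest library stood apart from the rest of its group by the gap between it and its nearest neighbour. For normally spread values chance marks about 1 in 20 such groups. That rate need not hold for FPKM from few reads, so 4 of 28 is not read as an excess. Cyp301a1 was 0.787 FPKM in late pupa replicate 2, from 54 reads, against 0.0818 to 0.173 FPKM in the other three. Cpr97Ea was highest in the same pupal library, at 2.28 FPKM. Cyp301a1 was 0.0287 FPKM in day 120 dominant gamergate replicate 3 and 0 in the other five, a difference of 2 reads. Cyp304a1 was 2.48 FPKM in day 10 worker replicate 3, from 286 reads, against 1.57 to 1.69 FPKM in the others. Cyp304a1 was 4.72 FPKM in day 120 hunting worker replicate 5, from 1066 reads in the deepest library, against at most 3.27 FPKM in the other eight. That library also held the highest summed fat body markers of all libraries, 3596 FPKM.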

How the results depend on the processing

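Of 948 values of the 4 genes under other settings, 872 kept their direction and their side of the threshold, 34 lost a call, 4 gained one and 38 changed sign, all 38 of them values that had not passed. The cause was not tested. The falls of Cyp301a1 and Cyp4aa1 from day 10 workers to hunting workers, and of Cyp4aa1 from duelers to day 120 gamergates, passed under every setting run. Counting error limits Cyp301a1 and Cyp4aa1 at day 120, where most libraries held under 10 reads.

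Members called in day 20 against day 10 workers numbered 1 under TPM, limma-voom and the fit of only the groups compared. In day 20 gamergates against duelers they numbered 0 with a pseudocount of 0.1, TPM, limma-voom and only those groups, and 1 with a pseudocount of 1 or no filter. In hunting workers against day 10 workers they numbered 4 under TPM, in day 120 gamergates against duelers 1 under limma-voom, in late pupae against day 10 workers 1 under TPM, limma-voom and only those groups, and in late pupae against hunting workers 2 under TPM and only those groups. With libraries left out in turn they ranged from 1 to 2, 0 to 2, 2 to 2, 2 to 2, 1 to 2 and 1 to 1 in these 6 comparisons.

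Over all genes, calls between castes at day 10 numbered 1 under TPM and 5 under limma-voom, at day 20 3 with a pseudocount of 1 and 2 with only those groups, and at day 120 3 under limma-voom, 0 with only those groups and 47 without the run term. Day 20 against day 10 workers gave 1252 with only those groups. Day 20 gamergates against duelers gave 1585 under TPM and 1397 with only those groups. Hunting workers against day 10 workers gave 5788 under TPM. The interaction gave 1 under TPM and 1 with only those groups. The mean caste difference gave 9 with a pseudocount of 0.1, 9 without the filter and 4 under TPM. With libraries left out the counts ranged from 1 to 4, 1 to 3 and 0 to 13 between castes, from 1332 to 2315 and 1722 to 2713 for day 20 against day 10, from 1290 to 3012 and 1503 to 2836 for day 120 against day 10, from 5186 to 5879 and 5023 to 5813 for the pupal comparisons, from 0 to 2 for the interaction and from 5 to 22 for the mean caste difference.

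Under TPM the median of all genes stood at 0.27 (caste, day 10), 0.34 (workers, day 20 against day 10), 0.46 (hunting against day 10 workers), 0.20 (day 120 gamergates against duelers), 0.51 (late pupae against day 10 workers) and -0.26 (interaction), where it was -0.04 to 0.01 without it. Genes higher and lower were then 2966 and 76 in place of 1185 and 948 for day 20 against day 10 workers, 1256 and 329 in place of 1403 and 1171 for day 20 gamergates against duelers, 5529 and 259 in place of 1299 and 1161 for hunting workers, 1996 and 459 in place of 1312 and 1198 for day 120 gamergates, and 5240 and 1170 in place of 3054 and 2672 for late pupae against day 10 workers. In day 10 worker replicate 3 FPKM summed to 327349, of which apd-3l made up 8.19%. Signs changed for Cyp303a1 (0.37) and Cyp304a1 (0.23) in late pupae against day 10 workers and for Cyp303a1 in the interaction (-0.21) under TPM. Under limma-voom they changed for Cyp303a1 (-0.01) and Cyp304a1 (-0.01) in day 20 against day 10 workers and for Cyp4aa1 in the interaction (-0.15).

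With single libraries left out, values that changed sign ranged as follows. Cyp301a1 ran from -1.23 to 0.12 between castes at day 10, from -0.16 to 1.19 in the interaction and from -0.36 to 0.09 in the mean caste difference. Cyp303a1 ran from -0.04 to 0.07 for day 20 against day 10 workers, from -0.01 to 0.10 for hunting against day 10 workers, from -0.05 to 0.09 in the interaction and from -0.02 to 0.03 in the mean caste difference. Cyp304a1 ran from -0.02 to 0.16 and from -0.12 to 0.19 for day 20 against day 10 in workers and in the gamergate line, and from -0.25 to 0.03 in the interaction. Cyp4aa1 ran from -0.18 to 0.09 for late pupae against hunting workers.

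The replicate numbers were not shown to pair libraries, since the correlations of deviations between same-numbered libraries of the castes were -0.128 to 0.178 at day 10, 0.099 to 0.450 at day 20 and -0.091 to 0.239 at day 120. With the replicate number as a block, all genes called numbered 1 between castes at day 10, 0 at day 120, 1588 in hunting workers against day 10 workers and 6 in the mean caste difference. Members called with the block numbered 1 in day 20 gamergates against duelers and 2 in hunting workers against day 10 workers, and Cyp303a1 was at -0.02 in the mean caste difference.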

Other observations

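Cyp4g15, another gene of the CYP4 family, was nearly absent from adult brains except in 2 dominant gamergates at day 120. Replicate 2 held 19.8 FPKM from 1840 reads and replicate 1 held 6.48 FPKM from 370 reads. In the other four gamergates of that age and in the 9 hunting workers no library exceeded 0.695 FPKM, and all 4 day 20 workers were at 0. One late pupa, replicate 3, held 1.89 FPKM. The gene did not reach 1 FPKM in 4 libraries, so it was not tested. Replicate 2 is also a library with a high Cyp304a1 value, 6.69 FPKM, whereas replicate 1 has the lowest of its group, 2.46 FPKM. Replicate 3 of the late pupae was also highest in the ecdysteroid synthesis genes shd, at 1.26 FPKM, and dib, at 1.86 FPKM. Cyp18a1 was highest in another pupa, replicate 1, at 5.33 FPKM from 446 reads. These genes were singled out after their values were seen.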
